A study of Mus musculus with 4 samples.

Results

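The tripartite motif (TRIM) genes were examined in cancer cells derived from mammary tumours of MMTV-Neu mice. They were chosen by name: every gene that the array's own annotation calls Trim followed by a number, with at most 1 letter after it, was taken, apart from 1 gene that the rule left out. The rule found 60 genes with 87 probes, of 31829 named genes on the array, and the brightest probe over the 4 arrays stood for each gene. Of the 60 genes, 45 were measured well enough to be tested, 7 were well above background on 1 array alone and 8 on none.

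The study compared tumour cells with and without Pak1, a p21-activated kinase that relays signals from Rac and Cdc42, on 4 one-colour arrays. Every sample carried the MMTV-Neu transgene, in which a promoter of mouse mammary tumour virus, active in the mammary epithelium, expresses the oncogene Neu (Her2). Both groups were cultured in low-calcium medium with horse serum, deprived of serum for 3 h and given EGF for 15 min. The 2 arrays labelled Pak1-/- and the 2 labelled Pak1+/+ differed, per their labels, by the Pak1 genotype and, per the series design, came from different tumours. The age of the mice was not given in the sources used here. The study's methods speak of cell lines derived from tumours, and whether the 2 arrays of a group hold cells of separate tumours or cultures of 1 line was not settled by the sources used here. Each SE and p-value below measures only the spread between these samples, which may be technical. All 4 arrays lay on 1 slide, with the arrays labelled Pak1-/- in positions 1 and 2, so slide position and genotype cannot be told apart.

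Most TRIM proteins have a RING finger that passes ubiquitin from a conjugating enzyme to a target, followed by B-box domains and a coiled coil. What lies behind the coiled coil sorts the family. Many members end in a PRY-SPRY domain that binds partners, several of them restrict viruses or tune the sensing of viral RNA and DNA, and many of those genes are known to be switched on by interferon. Others end in a COS box that holds microtubules, in a PHD finger and bromodomain that read chromatin, or in NHL repeats that bind RNA or protein. In the mouse, a group of closely related antiviral TRIM genes lies side by side on chromosome 7.

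Interferon acts on many of its target genes through a short sequence near the start site, the interferon-stimulated response element. The windows below are shown because they hold the core of that element, GAAANNGAAA or its complement TTTCNNTTTC, near the start of 7 TRIM members and of 2 neighbours that the array lists under other names. Each is 30 bases long, in the direction of the gene, from RefSeq on GRCm38.p6, with every match in capitals. They were found by a search of both strands between 250 bases before and 50 bases after each annotated start.
Trim12a: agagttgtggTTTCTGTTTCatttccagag
Trim5: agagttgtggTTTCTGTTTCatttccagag
Trim12c: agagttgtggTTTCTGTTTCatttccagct
Trim34a: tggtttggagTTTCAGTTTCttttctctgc
Trim30a: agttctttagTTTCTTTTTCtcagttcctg
Trim30d: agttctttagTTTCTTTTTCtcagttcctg
Trim21: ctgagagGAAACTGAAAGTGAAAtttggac
Trim26: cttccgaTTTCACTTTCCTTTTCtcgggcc
Trim2: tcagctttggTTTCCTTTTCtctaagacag

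The windows lay at chr7:104315466-104315495 on the minus strand for Trim12a, chr7:104288136-104288165 on the minus strand for Trim5, chr7:104353359-104353388 on the minus strand for Trim12c and chr7:104244457-104244486 on the plus strand for Trim34a. Those of Trim30a and Trim30d were chr7:104465210-104465239 and chr7:104507871-104507900, both on the minus strand. For Trim21 the window was chr7:102565447-102565476 on the minus strand, for Trim26 chr17:36836979-36837008 on the plus strand and for Trim2 chr3:84212791-84212820 on the minus strand. The windows of Trim12a and Trim5 had 0 mismatches over their 30 bases, and that of Trim12c had 2 mismatches to each of them. Trim30a and Trim30d likewise had 0 mismatches. A second annotated start of Trim30a held the motif in a window with 4 mismatches to the first. Trim21 and Trim26 each held 2 overlapping matches.

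The motif was found near the start of 1079 of 27025 genes (3.99%) and in 3.44% of all windows searched. Of the 45 TRIM members with a window in the table, 7 held it (15.6%). All 7 were among the 15 members with a window that were higher in the arrays labelled Pak1-/- (46.7%). Of these 15, Trim12, Trim5 and Trim69 were measured in those arrays alone and could only be called higher, and the identical windows of Trim12a and Trim5 count as 2 of the 7. Trim14 and Trim35, also higher, had no window in the table. None of the 4 members that were lower, of the 13 that did not pass the test or of the 13 that were not tested held it. The motif was picked with the expression results known, and a match of letters is a description and not a shown binding site. The other interferon element searched, TTCNNNGAA, was found near the start of 9.55% of genes and of 5 of the 45 members, 0 of which were higher. Those 5 were Trim15, Trim31, Trim38, Trim45 and Trim46.

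Values below are log2 intensities after background correction and quantile normalization, with replicate 1 of a group before replicate 2, and Pak1-/- and Pak1+/+ stand for the arrays so labelled. A difference is the log2 value in Pak1-/- minus that in Pak1+/+, with its standard error (SE). A gene was called where the p-value of limma's moderated test, adjusted over all 27229 probes tested, was under 0.05. Probe positions are those of the files, on mm9. In a bulk sample, fewer cells that express a gene and less RNA of it per cell cannot be told apart.

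The probe of Pak1 stood at 12.21 and 12.25 in the arrays labelled Pak1-/- and at 12.04 and 12.04 in those labelled Pak1+/+ (difference 0.19, SE 0.07, adjusted p = 0.070). It was thus not lower where the labels give a knockout, and whether it lies in the deleted part is not stated. Erbb2, the gene of Her2, was lower by a small amount (difference -0.31, SE 0.07, adjusted p = 0.0202). Median spot intensity ran from 322 to 331 over the 4 arrays. The share of probes well above background was 70.4% and 68.2% in Pak1-/- and 67.7% and 62.2% in Pak1+/+. Arrays of a group correlated at r = 0.997 over probes, and arrays of different groups at 0.954 to 0.959. Of the 8 epithelial markers, 7 were well above background on all 4 arrays, and 0 were below it on every array. All 8 were tested, 3 were higher in Pak1-/- (Cdh1 by a difference of 1.19, Krt8 of 0.57 and Krt18 of 0.27) and 0 were lower. Of the 12 leukocyte markers, 7 were well above background on all 4 arrays, while Lyz2, Tyrobp and Laptm5 were above it on none. Of the 8 tested, 0 were higher in Pak1-/- and 3 were lower (Emr1 by a difference of -1.05, Ptprc of -0.45 and Fcer1g of -0.37). The summed linear intensity of the 12 leukocyte markers was 76029 and 53437 in Pak1-/- against 49449 and 44885 in Pak1+/+, but most of it was the Itgam probe, which was not called (16.07 and 15.51 against 15.39 and 15.20 on the log2 scale, adjusted p = 0.11). The part of leukocyte RNA in the results below was not tested. Of the 8 fibroblast markers, 3 were well above background on all 4 arrays, while Col3a1, Dcn, Lum and Pdgfrb were above it on none. Of the 3 tested, 1 was higher.

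Of all 21961 genes tested, 51.0% were called, 22.8% as higher and 28.2% as lower in Pak1-/-. The 45 tested TRIM members were called about as often, 23 of them (51.1%), with 17 higher (37.8%) and 6 lower (13.3%). Of the 17, Trim12, Trim5, Trim35 and Trim69 passed the filter through the Pak1-/- arrays alone and could only be higher, and of the 35 members well above background on all 4 arrays, 12 were higher and 5 lower. At least a 2-fold change was found for 9 TRIM members, all higher. Over all genes, 7.00% were called and at least 2-fold higher, and 5.62% at least 2-fold lower. The median difference of the TRIM members was 0.17 against -0.055 for all genes. It was the same with the 4 members measured in Pak1-/- alone set to their lower bound. Each of these 4 bounds lies above the median, so that step could not move it. The median was 0.082 over the 35 members well above background on all 4 arrays, 0.024 with no filter and 0.075 without Pak1-/- replicate 1. For 34 of the 45 members the values of Pak1-/- and Pak1+/+ did not overlap, beside 77.6% of all genes, so a lack of overlap did not set the members apart.

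**Figure D1:**
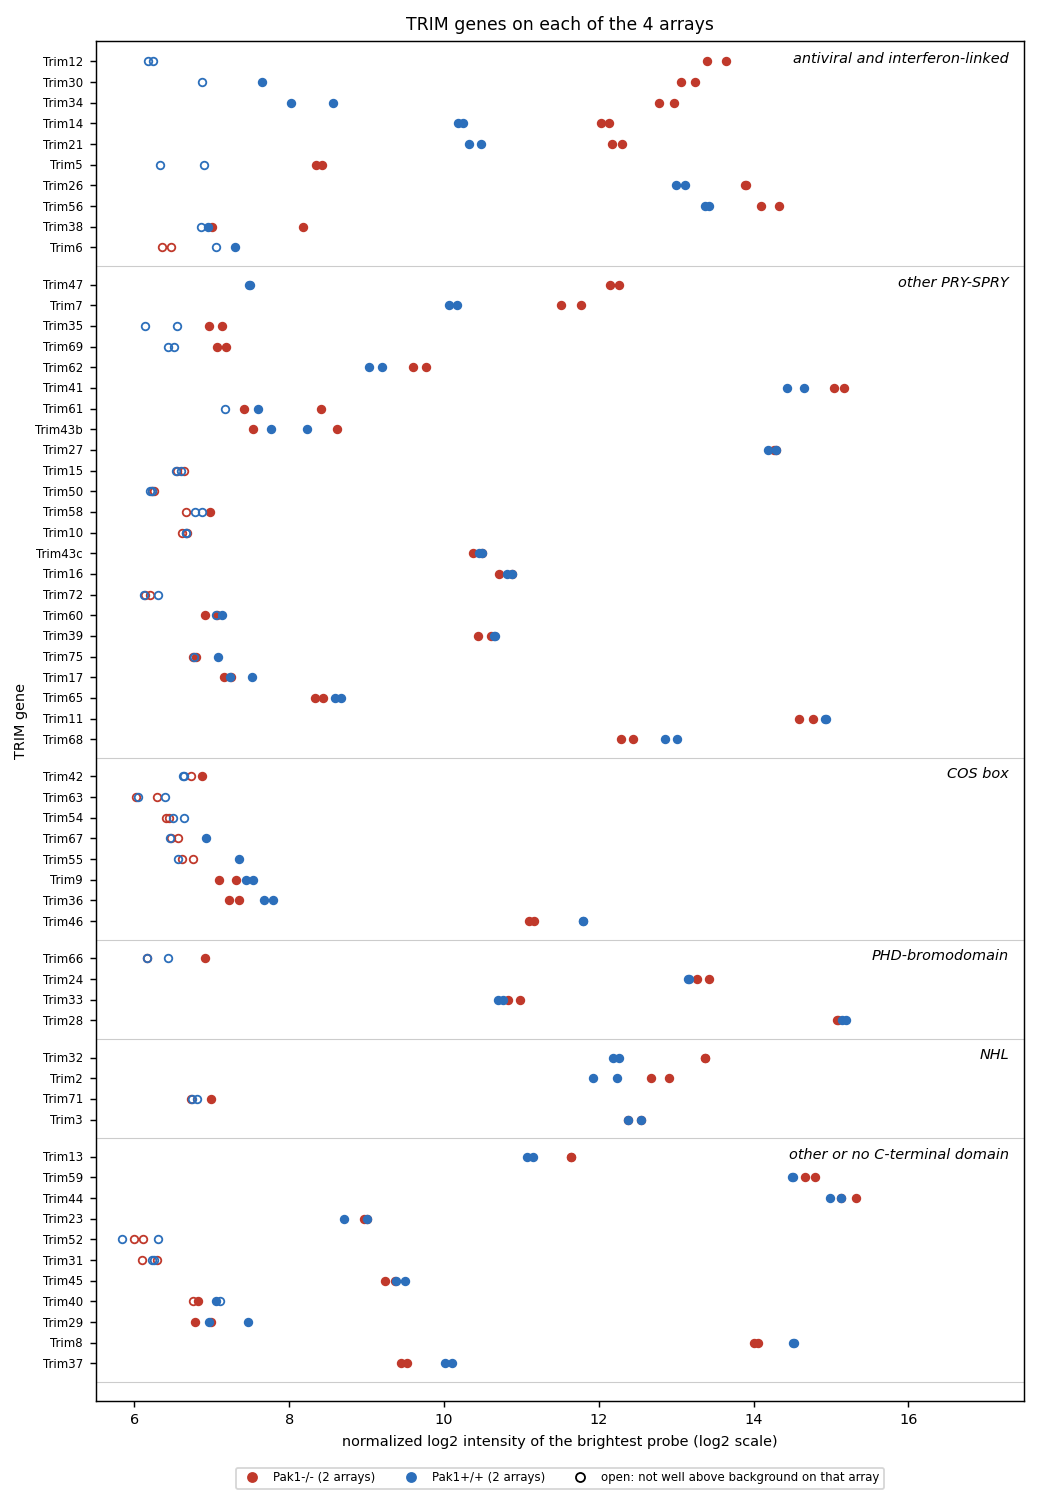
Normalized log2 intensity (horizontal axis) of the brightest probe of each of the 60 TRIM genes (vertical axis), in red for the 2 arrays labelled Pak1-/- and in blue for the 2 labelled Pak1+/+, grouped by the domains of the protein. Open circles mark arrays on which the probe was not well above background. The red points of Trim12, Trim30, Trim34 and Trim47 lie far to the right of the blue ones, while most other genes have the 4 points close together.

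The antiviral class held 6 of the 9 members that were at least 2-fold higher. Of the 10 antiviral and interferon-linked TRIM genes on the array, 9 were tested, 8 were higher in Pak1-/- and 0 lower, with a median difference of 1.83. Among the other 36 tested members, 9 were higher and 6 lower, 41.7% in all, with a median difference of -0.016. Trim12 and Trim5 passed the filter through the Pak1-/- arrays alone and so could only be higher, while the 5 genes of the class measured on all 4 arrays were all higher too. The share of this class that was called is given as a description beside the 51.0% of all genes, because the class was drawn up with earlier results of these arrays known.

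Trim12, a rodent relative of the retrovirus-restricting Trim5, had the widest separation. Its probe (chromosome 7, 111448499 to 111448558) stood at 13.65 and 13.40 in Pak1-/- and at 6.17 and 6.24 in Pak1+/+. In Pak1+/+ it was not well above background on either array, so the value there is a ceiling and Trim12 was at least 101-fold higher in Pak1-/- (adjusted p = 4.17e-05). The second Trim12 probe gave 11.19 and 11.08 against 6.53 and 6.45, which is at least 19.3-fold higher. Both probes were near background in Pak1+/+ and gave a clear signal in Pak1-/-.

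Trim30, which is known to restrain inflammatory signalling through the Tab2 and Tab3 adaptors, stood at 13.25 and 13.06 in Pak1-/- and at 6.87 and 7.64 in Pak1+/+ (chromosome 7, 111557578 to 111557637). Of the Pak1+/+ arrays, only replicate 2 showed it well above background. The difference was 5.90 (SE 0.27, adjusted p = 0.000264), and it ran from 5.51 without Pak1+/+ replicate 1 to 7.08 with the scaled processed signal. Trim34, a neighbour of the same kind, was measured on all 4 arrays, at 12.98 and 12.78 in Pak1-/- against 8.02 and 8.57 in Pak1+/+ (difference 4.58, SE 0.20, adjusted p = 0.000238). The gap between the 2 groups was many times the gap within either pair. The second probe of Trim34 gave a smaller difference of 2.05 (9.34 and 9.20 against 7.22 and 7.22).

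Trim14, an adaptor without a RING finger that sits with Mavs on mitochondria, stood at 12.03 and 12.13 in Pak1-/- and at 10.18 and 10.25 in Pak1+/+ (difference 1.87, SE 0.08, adjusted p = 0.00021). Its second probe differed by 0.70 (adjusted p = 0.00525). Trim21, the cytosolic receptor for antibody-coated viruses, was at 12.29 and 12.18 against 10.33 and 10.48 (difference 1.83, SE 0.09, adjusted p = 0.000328). For both genes each group was well above background, and the 2 pairs lay far apart. Trim5, of the family that binds retroviral capsids in primates, stood at 8.42 and 8.34 in Pak1-/- and at 6.33 and 6.90 in Pak1+/+. Neither Pak1+/+ array showed Trim5 well above background, so it was at least 2.85-fold higher (adjusted p = 0.00255).

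Smaller changes were found for Trim26 and Trim56. Trim26, known to act on Irf3 in the nucleus, stood at 13.91 and 13.90 against 12.99 and 13.12 (difference 0.85, SE 0.08, adjusted p = 0.00149). Trim56, which adds ubiquitin in the sensing of cytosolic DNA, was at 14.32 and 14.10 against 13.38 and 13.43 (difference 0.81, SE 0.10, adjusted p = 0.00345). Both were well above background on all 4 arrays, unlike Trim12 and Trim30.

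The last pair of the class gave no call. Trim38, known to dampen Toll-like receptor signalling, stood at 8.17 and 7.00 in Pak1-/- and at 6.95 and 6.86 in Pak1+/+. Most of its difference (0.68, SE 0.39, adjusted p = 0.207) came from Pak1-/- replicate 1. Without Pak1-/- replicate 2, the difference of Trim38 was 1.27 (adjusted p = 0.00678), with the lone array assumed to vary like the others. Trim6, which builds free ubiquitin chains for the kinase Ikbke, was not tested. Its probe read 6.47 and 6.36 in Pak1-/- and 7.30 and 7.05 in Pak1+/+, and only Pak1+/+ replicate 1 was well above background. It was thus the antiviral member with no measured signal in Pak1-/-.

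**Figure D2:**
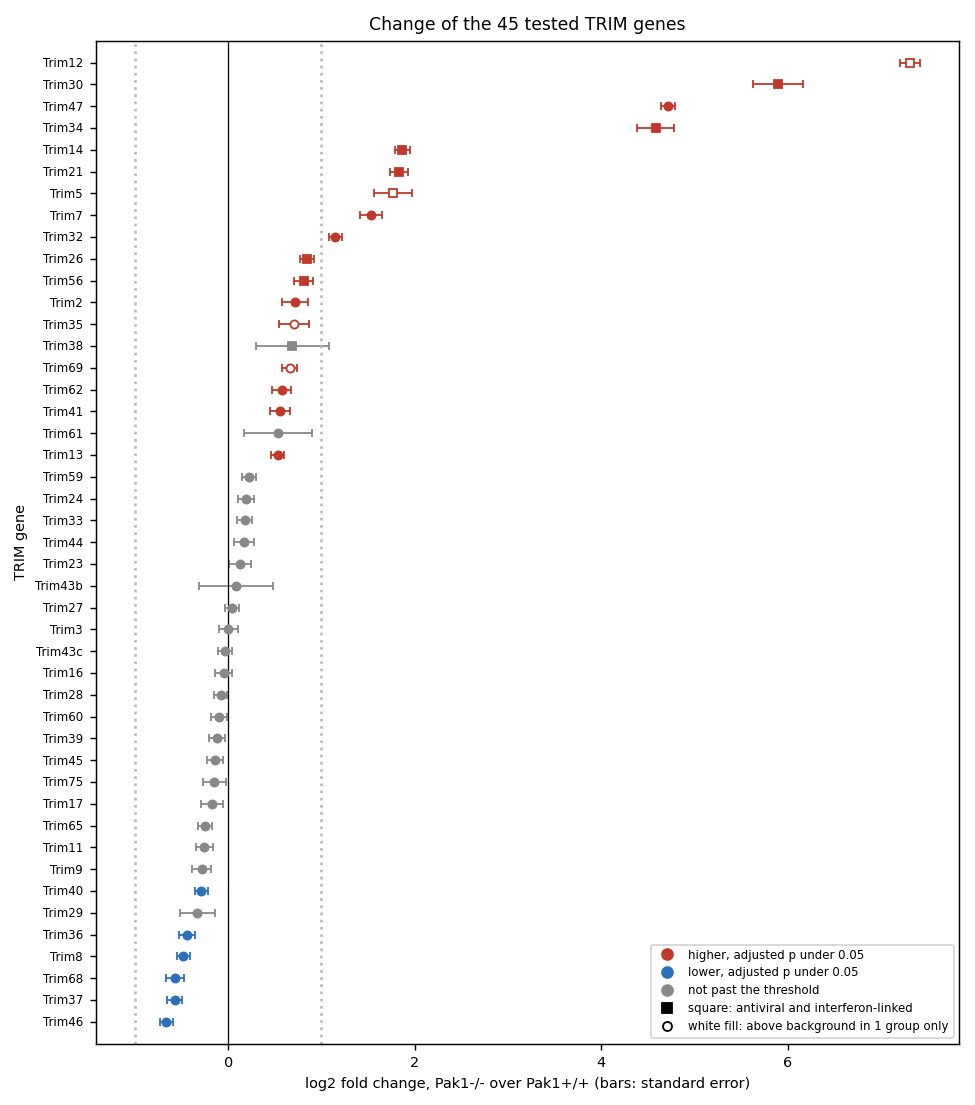
Log2 difference between Pak1-/- and Pak1+/+ (horizontal axis, bars 1 standard error) of the 45 tested TRIM genes (vertical axis), in red where called higher, in blue where called lower and in grey otherwise, with squares for the antiviral class and dotted lines at a 2-fold change. White symbols mark the 4 genes measured in Pak1-/- alone, whose values are not exact. The 9 genes past the right dotted line range from Trim32 at 1.15 to Trim12 at 7.31, and the lowest gene, Trim46, stands at -0.67.

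Much of this class lies in the chromosome 7 group, where neighbours could be set side by side. From Trim6 to Trim30, 5 members of the class followed each other with gaps of 27.5 kb, 1.9 kb, 36.0 kb and 109.0 kb between their probes. Of these, Trim34, Trim5, Trim12 and Trim30 were all called higher, and Trim6 at the edge was not tested. On the far side, 1201.6 kb from Trim30, Trim3 stood at 12.55 and 12.38 in Pak1-/- and at 12.54 and 12.38 in Pak1+/+ (difference 0.0014, SE 0.10). Trim3 encodes a brain-enriched NHL protein, and its 2 groups overlapped.

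Elsewhere on the chromosome, Trim21 and Trim68 lay 119.8 kb apart and moved in opposite directions. Trim68, known as a cofactor of the androgen receptor, stood at 12.45 and 12.29 in Pak1-/- and at 13.02 and 12.86 in Pak1+/+ (difference -0.57, SE 0.10, adjusted p = 0.00927). The array lists further genes of the group under other names, which the naming rule did not take. Trim30d, listed as AI451617, stood at 13.20 and 12.96 against 6.70 and 6.61 and was at least 74.1-fold higher. Trim12c, listed as 9230105E10Rik, was higher at all 3 of its probes, by 2.24, 2.34 and 3.57. Trim30b, listed as A530023O14Rik, was not above background on any array.

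Because these genes arose by duplication, a probe may also bind the RNA of a close relative. The 60-base probes of the members shared at most 21 bases in a row with a probe of another gene on the array, which says nothing of the transcripts. Whether each probe binds 1 transcript alone was not tested, so the values of Trim12, Trim5, Trim30 and their relatives may be partly shared.

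**Figure D3:**
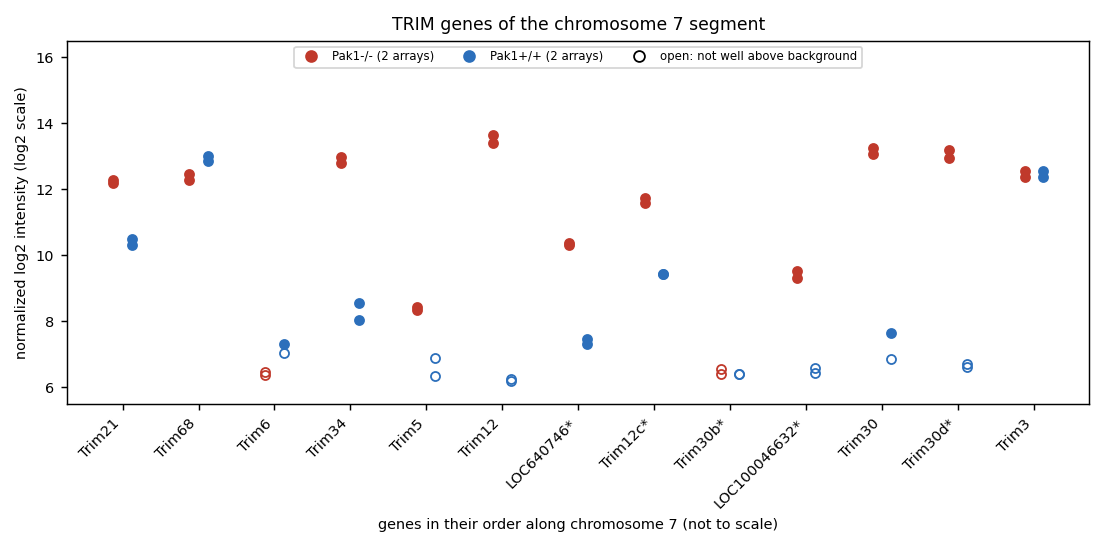
Normalized log2 intensity (vertical axis) of the TRIM genes in the chromosome 7 group in their order along the chromosome (horizontal axis, not to scale), in red for the 2 arrays labelled Pak1-/- and in blue for the 2 labelled Pak1+/+. Genes with an asterisk are listed on the array under other names, and open circles are not well above background. From Trim34 to Trim30d the red points stand clearly above the blue ones, apart from Trim30b, which was not above background on any array, while Trim68 is lower and Trim3 has the same level in both groups.

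Of the 23 PRY-SPRY genes outside the antiviral class, 18 were tested, 6 were higher and 1 was lower, 38.9% in all beside 51.0% of all genes, with a median difference of 0.0038. Trim47, a RING ubiquitin ligase on chromosome 11 (115967143 to 115967202), had by far the largest change of these. It stood at 12.15 and 12.26 in Pak1-/- and at 7.49 and 7.48 in Pak1+/+ (difference 4.72, SE 0.08, adjusted p = 4.18e-05). All 4 arrays showed it well above background, and the arrays of a group differed little. Its neighbour Trim65, known to act on the RNA sensor Ifih1, lay 18.8 kb away and was at 8.33 and 8.43 against 8.59 and 8.67 (difference -0.25, SE 0.08, adjusted p = 0.052). The second probe of Trim65 differed by -0.021 (SE 0.13, adjusted p = 0.906).

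Trim7, a partner of the glycogen primer glycogenin, stood at 11.77 and 11.52 in Pak1-/- and at 10.06 and 10.17 in Pak1+/+ (difference 1.53, SE 0.11, adjusted p = 0.000857). Its second probe gave nearly the same difference, 1.31. Trim41, 43.6 kb from Trim7, differed by 0.56 (15.16 and 15.04 against 14.43 and 14.66, adjusted p = 0.0131), a call lost without Pak1-/- replicate 1 (adjusted p = 0.0691). Trim62 differed by 0.57 (adjusted p = 0.010). Trim35 and Trim69 were well above background in Pak1-/- alone and were at least 1.14-fold and at least 1.20-fold higher. A second probe of Trim35 was not above background on any array (6.24 and 6.07 against 6.10 and 6.08). The call of Trim35 was lost without Pak1-/- replicate 1 (adjusted p = 0.105) and without Pak1-/- replicate 2 (0.0624).

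The remaining tested genes of this class did not pass. Trim11 stood at 14.77 and 14.58 in Pak1-/- and 14.93 and 14.94 in Pak1+/+ (difference -0.26, SE 0.09, adjusted p = 0.0738). With the scaled processed signal it passed as lower (difference -0.35, adjusted p = 0.0425). Without Pak1-/- replicate 1 its difference was also -0.35. Trim27 differed by 0.041 (SE 0.07). Trim43b and Trim61 varied most between arrays of 1 group, with Trim43b at 8.62 and 7.54 in Pak1-/- and Trim61 at 8.41 and 7.41. Their differences were 0.082 (SE 0.39) and 0.54 (SE 0.36), and their groups overlapped. Without Pak1-/- replicate 2, Trim61 differed by 1.04 (adjusted p = 0.0413).

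Of the 4 NHL genes, 3 were tested. Trim32 and Trim2 were higher and Trim3 was not, beside 22.8% of all genes higher. Trim32, the ubiquitin ligase mutated in a limb-girdle muscular dystrophy, stood at 13.37 and 13.37 in Pak1-/- and at 12.19 and 12.26 in Pak1+/+ (difference 1.15, SE 0.07, adjusted p = 0.000521). Of 6 muscle markers, 4 were tested. Acta1 (difference 1.76) and Mb (1.48) were also higher, Ckm (-0.27) and Tnnt3 (-0.20) were not called, Myh4 was not tested and Des was not above background on any array. The summed linear intensity of the list, most of it Mb, was 5790 and 5489 in Pak1-/- against 2236 and 2311 in Pak1+/+. Their part in the Trim32 result was not tested. Trim2, known for its role in axons, was at 12.91 and 12.68 against 12.23 and 11.93 (difference 0.71, SE 0.14, adjusted p = 0.0135), but its second probe was not called (difference 0.16, SE 0.18, adjusted p = 0.494). The call of the first probe was lost without Pak1-/- replicate 1 (adjusted p = 0.0714). The fourth gene, Trim71, a regulator of early development, was not tested at its brightest probe, and another probe, well above background in Pak1-/- alone and so able only to be higher, was at least 1.10-fold higher (adjusted p = 0.00139).

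Among the 45 tested members, decreases were all under 2-fold and lay outside the antiviral class, whose Trim6 was called lower only with no filter and in the deposited log2 table. Of the 8 COS-box genes, 3 were tested and 2 were lower, beside 28.2% of all genes. Trim46, which organises microtubules at the start of the axon, stood at 11.17 and 11.10 in Pak1-/- and at 11.80 and 11.80 in Pak1+/+ (difference -0.67, SE 0.07, adjusted p = 0.00207). Trim36, also a microtubule-bound protein, was at 7.22 and 7.35 against 7.78 and 7.67 (difference -0.44, SE 0.09, adjusted p = 0.0133). Its difference was -0.61 with normexp at offset 0 and -0.77 with the scaled processed signal. The call of Trim36 was lost without Pak1-/- replicate 1 (adjusted p = 0.0565) or without Pak1+/+ replicate 1 (adjusted p = 0.0678).

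Of the 11 members with another or no C-terminal domain, 9 were tested, 1 was higher and 3 were lower, 44.4% in all beside 51.0% of all genes. Trim37, a limiter of centrosome formation that is mutated in a growth disorder, stood at 9.52 and 9.44 in Pak1-/- and at 10.02 and 10.10 in Pak1+/+ (difference -0.58, SE 0.08, adjusted p = 0.00406). Trim8, a binding partner of Socs1, was measured with 10 spots per array and was at 14.06 and 14.01 against 14.53 and 14.51 (difference -0.48, SE 0.07, adjusted p = 0.00489). Trim40, a gene of the gut, was barely above background, at 6.82 and 6.76 against 7.05 and 7.11 (difference -0.29, SE 0.07, adjusted p = 0.0265). It lost its call when any 1 of the 4 arrays was left out (differences from -0.26 to -0.32). The call was also lost in the deposited log2 table (limma, adjusted p = 0.0508) and with the scaled processed signal (difference -0.69, adjusted p = 0.0639). The increase in this class was that of Trim13, a ligase of the endoplasmic reticulum (difference 0.53, adjusted p = 0.0043), which its second probe matched at 0.56.

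Of the 3 chromatin-binding TRIM genes measured on all 4 arrays, 0 were called, beside 51.0% of all genes. Trim28, the corepressor that zinc-finger proteins bring to transposons, stood at 15.09 and 15.08 in Pak1-/- and at 15.20 and 15.14 in Pak1+/+ (difference -0.082, SE 0.07, adjusted p = 0.369). Its sign turned under another scaling, with a difference of 0.042 after cyclic loess. Trim24, a chromatin reader and corepressor of nuclear receptors, stood at 13.42 and 13.27 against 13.15 and 13.16 (difference 0.19, SE 0.08, adjusted p = 0.122). Under cyclic loess Trim24 passed with a difference of 0.27 (adjusted p = 0.0481). Trim33, which acts with Smad4 in signalling by the TGF-beta family, was at 10.98 and 10.83 against 10.70 and 10.76 (difference 0.17, SE 0.09, adjusted p = 0.152). Trim66, the fourth gene of the class, was well above background on 1 array alone.

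Where a gene had more than 1 tested probe, the calls mostly matched. Of 13 such genes, 12 had the same call at both probes, 1 (Trim2) did not, and 0 were called in opposite directions. Of the 12, Trim7, Trim12, Trim13, Trim14 and Trim34 were called higher at both probes, and the rest passed at neither. Second probes that were not tested, such as that of Trim35, do not enter here. Taken singly, 51.9% of all tested probes were called. How often 2 probes of a gene match over the whole array was not counted. The second probe gave a smaller difference by 2.54 for Trim34 and by 1.17 for Trim14, while for Trim7 the gap was 0.22. For Trim12 both probes gave only bounds, so no gap is given. Which of the probes comes closer to the true change was not tested.

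**Figure D4:**
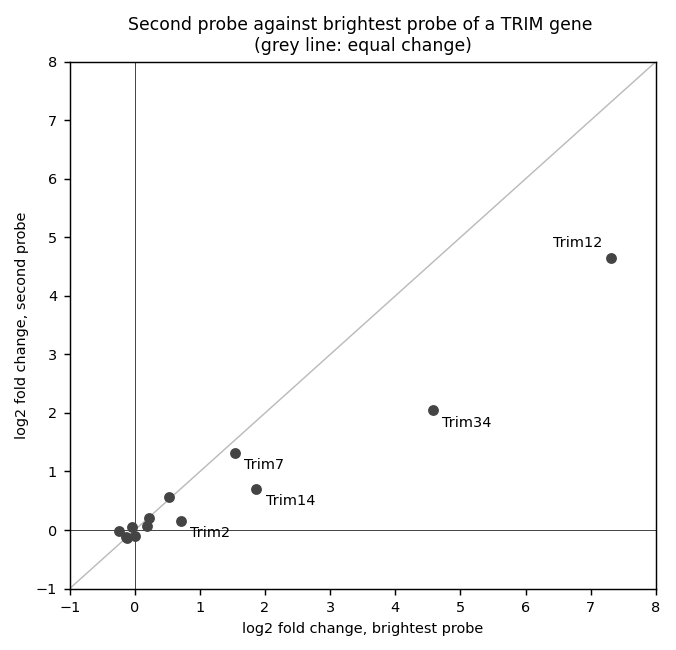
Log2 difference between Pak1-/- and Pak1+/+ at the second probe (vertical axis) against that at the brightest probe (horizontal axis) of the 13 TRIM genes with more than 1 tested probe; points on the grey line have equal differences. Trim34 and Trim14 lie below the line, by 2.54 and 1.17, the point of Trim12 is set by probes not well above background in Pak1+/+, and no gene was called in opposite directions.

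A further group of TRIM and TRIM-like genes goes under other names. Of 8 on the array, 6 were tested, 2 were higher and 0 lower, 33.3% in all beside 51.0% of all genes. Pml, the organiser of nuclear bodies and itself an interferon target, stood at 12.69 and 12.72 in Pak1-/- and at 12.82 and 12.72 in Pak1+/+ (difference -0.064, SE 0.07, adjusted p = 0.509). Rnf207, a cardiac ligase, was at 12.83 and 12.31 against 10.33 and 10.33 (difference 2.24, SE 0.18, adjusted p = 0.0011). Mid2, which binds microtubules, differed by 0.38 (adjusted p = 0.0129).

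Of 13 genes listed as ubiquitin-conjugating partners of TRIM proteins, all tested, 3 were higher and 3 lower, 46.2% in all beside 51.0% of all genes. Ube2l6, which conjugates the interferon-induced modifier Isg15, stood at 12.30 and 12.19 in Pak1-/- and at 11.48 and 11.17 in Pak1+/+ (difference 0.92, SE 0.13, adjusted p = 0.00434). Ube2n, which builds signalling chains with Trim5 and others, was lower (12.23 and 12.48 against 13.09 and 12.82, difference -0.60, SE 0.14, adjusted p = 0.0208). Ube2l3 was higher by 0.54 (adjusted p = 0.0053).

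The sensing and signalling proteins that TRIM ligases act on were called in 13 of 19 cases, with 8 higher (42.1%) and 5 lower (26.3%), beside 22.8% and 28.2% of all genes. Irf7, a transcription factor that drives interferon genes, stood at 14.30 and 14.26 in Pak1-/- and at 8.10 and 8.28 in Pak1+/+ (difference 6.09, SE 0.09, adjusted p = 4.17e-05). Ifih1, a sensor of viral RNA, differed by 3.90 (14.20 and 14.09 against 10.12 and 10.36, adjusted p = 0.0001). Irf9, a DNA-binding factor of the interferon response, differed by 2.82 (14.65 and 14.62 against 11.66 and 11.97, adjusted p = 0.000238). The 5 that were lower were Mavs, Tmem173, Tbk1, Ikbke and Map3k7, with differences from -0.28 to -0.74.

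Partners of the chromatin-binding TRIM proteins were called in 9 of 10 cases, 3 as higher and 6 as lower, beside 51.0% of all genes called. Hdac1, a histone deacetylase, was higher (15.00 and 14.98 against 13.91 and 13.95, difference 1.06, SE 0.07, adjusted p = 0.000601). Cbx5 and Cbx3, heterochromatin proteins that bind Trim28, were lower by differences of -0.75 (adjusted p = 0.00677) and -0.61 (adjusted p = 0.00242).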

How the data were processed

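Spot intensities on a linear scale, made by the authors with Feature Extraction 9.5.3.1 per the file headers, were deposited without normalization between arrays. A deposited log2 table, normexp corrected and quantile normalized per the methods, served as an alternative. From the intensities, background was corrected here with normexp (limma 3.58.1, R 4.3.3, offset 50), control spots were removed, log2 values were quantile normalized, outlier spots dropped and spots averaged per probe. The 27229 probes that were well above background in 2 or more of the 4 arrays were fitted with lmFit and eBayes, genotype as the only term, with Benjamini-Hochberg adjustment and a threshold of 0.05. The fit had 2 residual degrees of freedom and a prior of 2.62. An exact permutation test of 2 against 2 cannot go below p = 0.333, and the number of arrays limits all precision. The fit and its adjustment were tested on simulated log2 values. Background correction, normalization, the filter and the bounds were not tested in that way.

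Where both arrays of a group were not well above background, a bound is given: the mean of the brighter group against, per dim array, the higher of the probe's value and the lowest signal well above background. Names were updated through RefSeq for 56 members. The members, classes, partner lists and motifs were chosen with earlier results of these data known. Text names the antiviral class, the 10 largest called changes in each direction, Trim24, Trim28, Trim33, bounds of at least 2-fold, and the 3 largest called changes of each partner list; every other gene named was chosen after its values were seen. Alternatives changed the background correction, normalization, source, filter, probe rule, threshold, replicate block and samples. A gene that the naming rule leaves out and a gene of the signalling list are not reported here.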

Additional observations from a re-analysis of the deposited data

How the results depend on the processing

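Requiring a 2-fold change left 9 TRIM genes higher and 0 lower (limma; 6 lower at the adjusted threshold alone). Keeping only probes well above background on all 4 arrays left 5 antiviral genes to test, and all 5 were higher. With no filter, and in the deposited log2 table, 1 antiviral gene was lower, the dim Trim6. The median TRIM difference was 0.17, and 0.024 with no filter, where all 60 genes entered. Among genes not called in the report, Trim59 passed as higher under cyclic loess (difference 0.32, adjusted p = 0.0214), where 19 genes were higher. Trim9 passed as lower without Pak1-/- replicate 1 (adjusted p = 0.0475), and Trim29 without Pak1+/+ replicate 1 (0.0329). Leaving out 1 array at a time gave 14 to 18 genes higher, 5 to 6 lower, 8 to 9 antiviral genes higher and 0 lower, and medians of 0.075 to 0.25. Replicate numbers did not pair the arrays (correlation of deviations -0.028). With the replicate block, 17 genes were higher, 5 lower (Trim40 was lost) and 8 antiviral genes higher. Under cyclic loess Trim28 turned to 0.042, and the cause was not tested. Over the tested TRIM genes that the rule for named genes chose, 308 of 330 values kept direction and call, 19 lost the call, 2 gained it and 1 turned. Settings that change only the filter, threshold or replicate block leave each difference as it is, so direction could not turn there. Settings in which a gene was not tested were not counted. The bound of Trim12 ran from 98.5-fold to 257-fold and that of Trim5 from 2.82-fold to 5.01-fold over the background corrections and scalings. The upper ends came from the scaled processed signal, which changes both. With only the scaling changed, the bounds were 98.5-fold and 99.8-fold for Trim12 and 2.82-fold and 2.88-fold for Trim5. Genes dim in both groups have no usable difference here.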
